A study of Mus musculus with 6 samples.

Results

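Hox genes encode homeodomain transcription factors and lie in 4 clusters, Hoxa, Hoxb, Hoxc and Hoxd. The 39 genes described here were chosen by name, as every row of a table of 55401 genes whose symbol was Hoxa, Hoxb, Hoxc or Hoxd followed by a paralog number. Antisense and microRNA rows of the clusters were left out of the 39 and are described separately. The family was picked out with the difference between the groups below already known, so the FPKM values of its members in this contrast are a description, and calls among them are counted but support nothing. The study cultured mesenchymal stromal cells (MSCs), adherent marrow cells that can form bone, cartilage and fat, flushed from the femur of C57/B6J mice. All 6 libraries came from cultures given LPS (lipopolysaccharide, a bacterial cell wall component that triggers inflammatory signalling) at 3 µg/mL for 24 h. The first group of 3 libraries was from wild-type (WT) cells, and the second group of 3 was from cells labelled NLRP3-/-, which lack the sensor protein of an inflammasome. Sample titles number the libraries of either group by day, from 1 to 3, while a second label has day 1 for every sample. The labels give neither the age of the mice nor how the allele was made, and they do not say whether libraries of a group came from separate animals or cultures. A p-value here thus reflects the scatter among the libraries alone, and that scatter may be technical.

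In the embryo, Hox genes are switched on in the order of their position along the chromosome. Low paralog numbers act toward the head, and high numbers toward the tail and the tips of the limbs. Adult stromal cells keep much of the Hox pattern of the body site they came from, and blood progenitors use another set, with Hoxa9 and Hoxb4 among the best known. Proteins of the Polycomb group keep silent Hox clusters off, Trithorax proteins keep active ones on, and retinoic acid induces the genes of low paralog number.

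Totals ran from 53157580 to 66298470 estimated counts per library, with about 4 counts taken to stand for each fragment. Between 11713 and 12089 genes per library reached an FPKM (fragments scaled to transcript length and library size) of 1. Nlrp3 was listed at an FPKM of 2.76, 1.68 and 1.86 in the WT libraries and at 0 in the 3 knockout libraries (two-sided exact permutation p = 0.1, the smallest that 3 against 3 allows). Genes had to reach an FPKM of 1 in 3 or more libraries to be tested. Over these 12136 genes, limma with Benjamini-Hochberg adjustment called 1264 genes higher and 1117 lower in the knockout at an adjusted p of 0.05. These calls were 10.4% and 9.2% of the genes tested. Changes below are log2 fold changes on the log2(FPKM + 1) scale, knockout minus WT, with the standard error (SE) of the fit. This scale understates the change of low genes, so ratios of mean FPKM are given beside it for some genes.

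RefSeq windows from 250 bases before to 50 bases after a transcript start (GRCm38.p6) were matched for 22 of the 39 genes, as 24 windows. Those of 5 genes are shown as examples from either direction of change. Hoxa11, Hoxd8 and Hoxd9 were near 0 in WT libraries and present in knockout libraries, while Hoxb4 and Hoxb8 belong to the cluster whose tested genes were all lower in the knockout. Hoxb4 had the smallest fall of that cluster. Sequences run 5′ to 3′ along the gene. Capitals mark matches on either strand to TATAAA (the core promoter TATA box), CCAAT (the CCAAT box), GGGCGG (the GC box), TTTATG (a core bound by posterior HOX proteins) and AGGTCA (a recognition element of nuclear receptors, those for retinoic acid included). The windows lie at chr6:52245761-52246060 (minus strand) for Hoxa11, chr2:74704365-74704664 (plus) for Hoxd8, chr2:74697513-74697812 (plus) for Hoxd9, chr11:96318017-96318316 (plus) for Hoxb4 and chr11:96281655-96281954 (plus) for Hoxb8.
Hoxa11: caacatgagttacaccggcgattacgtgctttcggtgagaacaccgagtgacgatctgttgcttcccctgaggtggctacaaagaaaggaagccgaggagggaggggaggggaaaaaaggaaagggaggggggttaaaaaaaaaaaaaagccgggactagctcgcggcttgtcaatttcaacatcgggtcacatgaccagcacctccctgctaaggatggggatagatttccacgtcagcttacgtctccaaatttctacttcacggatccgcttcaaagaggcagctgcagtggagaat
Hoxd8: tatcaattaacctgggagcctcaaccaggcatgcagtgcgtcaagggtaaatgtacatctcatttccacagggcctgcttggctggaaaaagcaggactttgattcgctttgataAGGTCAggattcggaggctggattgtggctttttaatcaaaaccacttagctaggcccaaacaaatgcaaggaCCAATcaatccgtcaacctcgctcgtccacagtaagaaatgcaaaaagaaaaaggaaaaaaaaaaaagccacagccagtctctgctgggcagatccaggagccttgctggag
Hoxd9: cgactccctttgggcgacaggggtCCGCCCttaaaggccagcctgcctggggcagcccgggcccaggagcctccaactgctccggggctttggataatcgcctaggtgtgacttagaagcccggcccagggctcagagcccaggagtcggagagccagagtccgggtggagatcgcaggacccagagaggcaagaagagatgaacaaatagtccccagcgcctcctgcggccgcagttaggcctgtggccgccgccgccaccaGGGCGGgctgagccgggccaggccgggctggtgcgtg
Hoxb4: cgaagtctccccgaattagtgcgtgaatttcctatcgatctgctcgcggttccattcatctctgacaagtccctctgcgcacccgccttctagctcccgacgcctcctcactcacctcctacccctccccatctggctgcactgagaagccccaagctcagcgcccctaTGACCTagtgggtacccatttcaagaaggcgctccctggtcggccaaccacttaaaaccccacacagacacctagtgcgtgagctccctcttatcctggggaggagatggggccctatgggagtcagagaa
Hoxb8: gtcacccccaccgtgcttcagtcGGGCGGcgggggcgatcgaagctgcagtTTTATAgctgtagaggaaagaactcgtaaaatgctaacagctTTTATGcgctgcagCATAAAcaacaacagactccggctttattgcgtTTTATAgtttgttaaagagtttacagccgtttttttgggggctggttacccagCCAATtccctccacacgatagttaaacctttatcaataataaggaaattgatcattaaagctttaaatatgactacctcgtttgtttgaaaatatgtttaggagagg

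The Hoxa11 window held none of the 5 motifs, with a GC content of 51.0% and 15 CpG dinucleotides. Hoxd8 had 1 CCAAT and 1 AGGTCA match, and Hoxd9, at 68.3% GC with 20 CpGs, had 2 GGGCGG matches. Hoxb4 had 1 AGGTCA match. Hoxb8, at 42.3% GC, had 2 TATAAA, 1 CCAAT, 1 GGGCGG and 2 TTTATG matches, none overlapping another. Among the 24 Hox windows, 4 held TATAAA, 15 held CCAAT, 10 held GGGCGG, 5 held TTTATG and 7 held AGGTCA. Over 32851 promoter windows of the same length the shares were 13.6%, 37.4%, 35.7%, 11.9% and 16.3%, and the medians were 52.7% GC and 7 CpGs. A match is a string of letters, not a measured binding site. With 22 of 39 genes matched, a comparison of promoter content over the family was void.

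Hox RNA as a whole was lower in the knockout libraries, and its makeup shifted between clusters. The FPKM summed over the 39 genes was 223, 220 and 197 in the WT libraries and 117, 116 and 123 in the knockout libraries. Hoxb accounted for 34.8%, 33.8% and 32.8% of the sum in WT and 14.3%, 14.9% and 14.7% in knockout libraries. Every knockout library lay below every WT library for both the total and the Hoxb share. The Hoxa share went the other way, at 9.98%, 10.1% and 10.2% in WT and 27.1%, 27.5% and 24.1% in knockout libraries. Hoxc kept the largest share in both groups, at 55.1% to 56.9% in WT and 55.6% to 59.4% in knockout libraries, and these ranges overlapped. In bulk RNA of this kind, fewer cells that express a gene and less of its RNA per cell cannot be told apart.

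**Figure D1:**
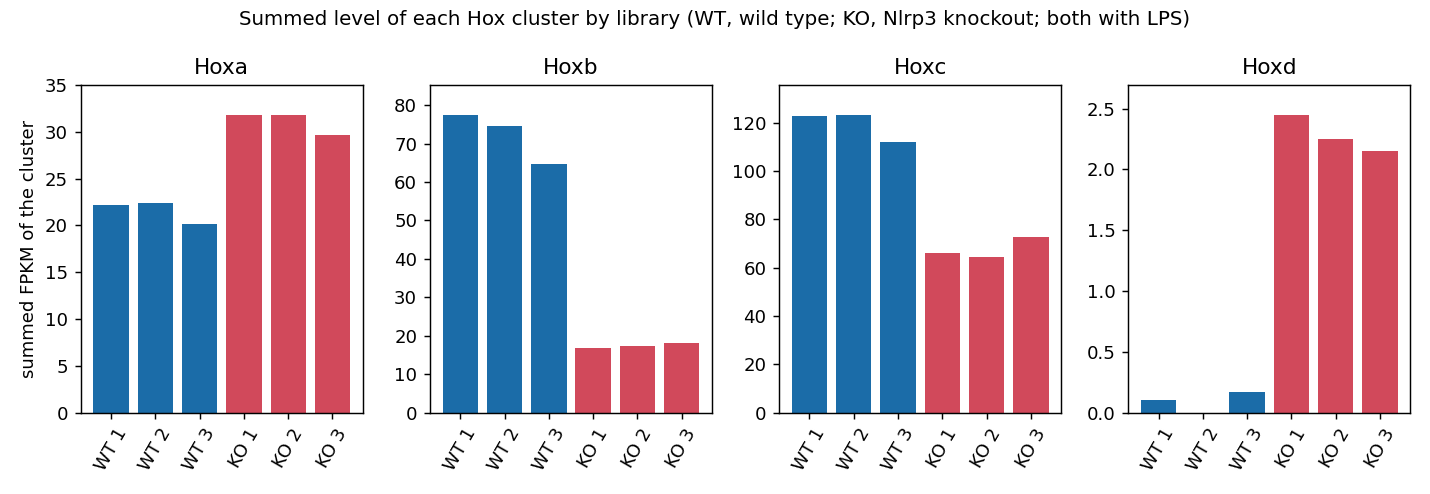
Summed FPKM of each Hox cluster (vertical axis) in each of the 6 libraries, with 1 bar per library, blue for WT and red for knockout, and a vertical axis of its own for each cluster. Hoxb and Hoxc sums lie lower in all 3 knockout libraries, and Hoxa and Hoxd sums lie higher in all 3.

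Of the 39 genes, 25 passed the filter on low values and were tested, 3 of them were called higher, 13 lower and 9 were not called. Over all genes tested, 10.4% were called higher and 9.2% lower. Hoxa11 entered the test through the knockout libraries only, and Hoxb5 and Hoxc12 through the WT libraries only, since all libraries of the other group were below an FPKM of 1. Of the 14 genes not tested, Hoxb1, Hoxd1 and Hoxd12 were listed at 0 in every library, 9 others stayed below an FPKM of 1 everywhere, and Hoxd8 and Hoxd9 reached it in 2 and 1 of the knockout libraries. Their median change on the log2 scale was -0.63 over the 25 tested, beside 0.01 over all genes tested. Groups did not overlap for 6 of the 25 with the knockout higher and for 14 with the knockout lower, where the shares over all genes tested were 18.8% and 18%. Since the family was picked out with this contrast known, nothing is read from these counts.

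**Figure D2:**
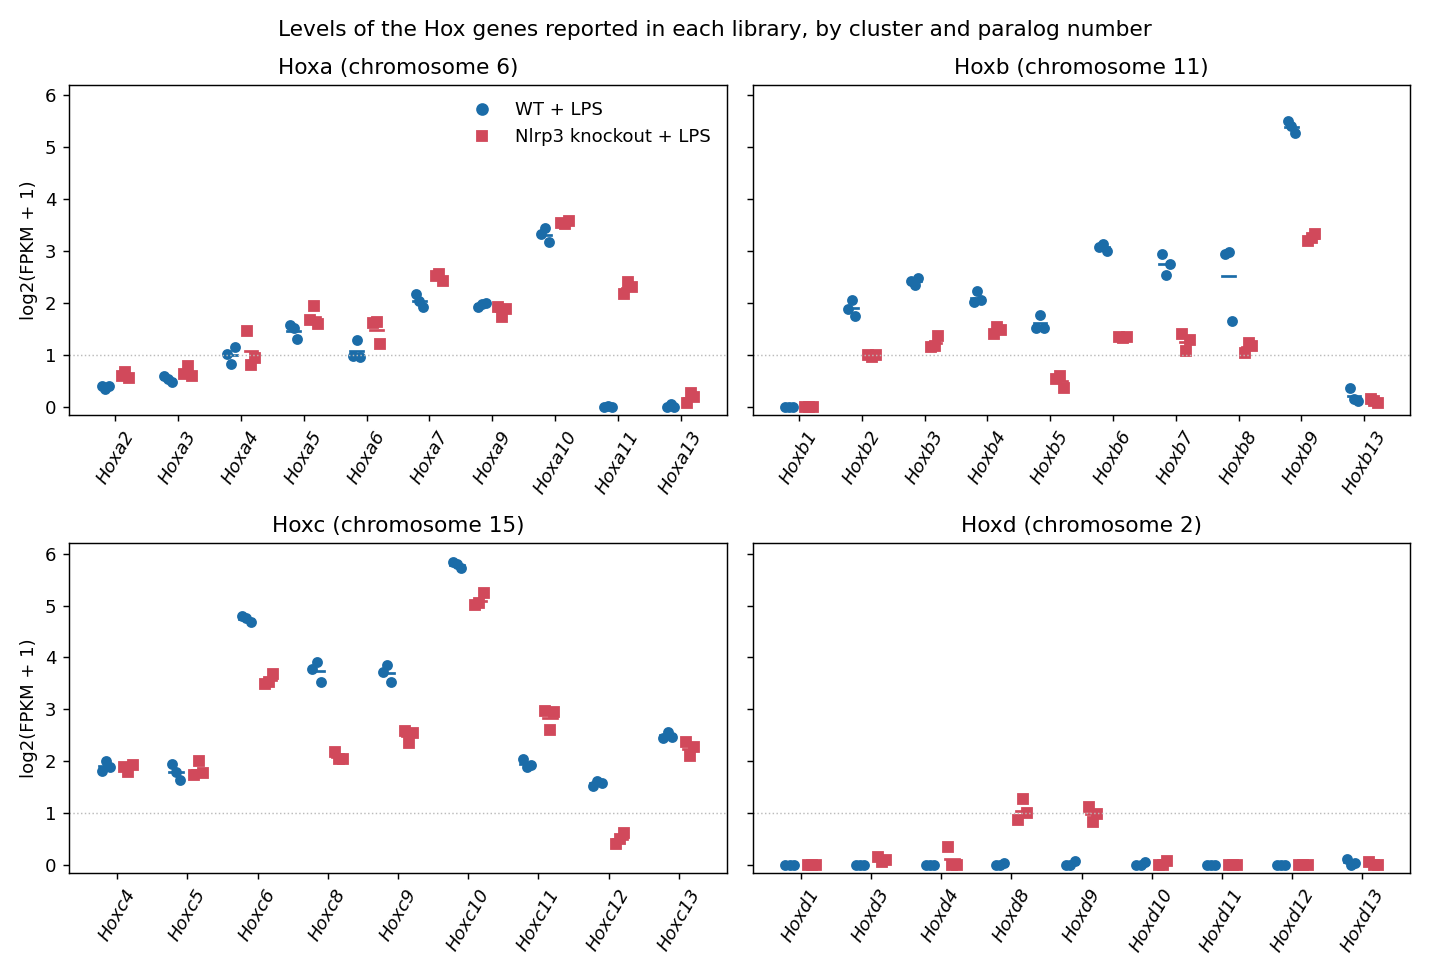
Levels of the Hox genes reported here as log2(FPKM + 1), ordered by cluster and paralog number, with WT libraries as blue circles, knockout libraries as red squares, short lines at group means and a dotted line at an FPKM of 1. Hoxc10, Hoxb9 and Hoxc6 are the highest genes in WT libraries, and Hoxa11, Hoxd8 and Hoxd9 have points well above 0 in knockout libraries only.

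Hoxb lies on chromosome 11 of GRCm38, from 96194316 to 96368256 on the plus strand, and spans 174 kb. All 8 of its tested genes fell in the knockout. The summed FPKM of its 10 genes was 77.5, 74.5 and 64.6 in WT libraries and 16.8, 17.3 and 18.1 in knockout libraries, or 72.2 ± 6.76 and 17.4 ± 0.638 (SD, n = 3 each). The groups did not overlap. In FPKM the knockout values spanned a narrower range than the WT values, around a far lower mean, and this difference in spread was not tested. Hoxb9, which patterns the thoracic skeleton together with its paralogs, was the highest gene of the cluster in both groups. Its FPKM was 44.4, 41.5 and 37.6 in WT libraries and 8.12, 8.60 and 9.08 in knockout libraries. The groups were far apart, and the change of -2.13 (SE 0.082) was the largest fall in the family on this scale, a 4.78-fold lower mean. At the other end of the cluster, Hoxb2 and Hoxb3 act in the developing hindbrain. Hoxb2 stood at 2.72, 3.17 and 2.36 in WT and 0.99, 0.94 and 1.01 in knockout libraries, a change of -0.92 (SE 0.10). The FPKM of Hoxb3 was 4.41, 4.11 and 4.61 in WT and 1.22, 1.27 and 1.59 in knockout libraries, a change of -1.19 (SE 0.092). The knockout libraries of both genes were below all their WT libraries.

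Hoxb4, known for expanding blood stem cells when overexpressed, showed the smallest fall of the cluster. Its FPKM was 3.07, 3.70 and 3.16 in WT and 1.66, 1.92 and 1.79 in knockout libraries, a 1.85-fold lower mean. The neighbouring Hoxb5 was at 1.86, 2.43 and 1.89 in WT and 0.46, 0.52 and 0.29 in knockout libraries, a 4.87-fold lower mean. Adjacent genes of the cluster thus spanned the whole range of its ratios. Hoxb6 measured 7.42, 7.80 and 7.03 in WT and 1.56, 1.5 and 1.56 in knockout libraries, a change of -1.73 (SE 0.072). Hoxb7 gave 6.71, 4.82 and 5.74 in WT and 1.64, 1.1 and 1.44 in knockout libraries, a change of -1.49 (SE 0.136). Both genes, which act in trunk patterning, were more than 4-fold lower by mean FPKM, with no overlap. Hoxb8, a factor that can hold myeloid progenitors in an immature state, was the least even member. Its FPKM was 6.67, 6.91 and 2.14 in WT and 1.05, 1.35 and 1.27 in knockout libraries. The third WT library lay nearer to the knockout libraries than to the other WT libraries, and the SE of the change of -1.37 was 0.351. Its call was lost when WT replicate 1, WT replicate 2 or any knockout library was left out (changes from -1.42 to -1.14), with the replicate number as a block, and without a filter, and was kept without WT replicate 3 (-1.81). Hoxb13, the gene at the tail end of the cluster, was at 0.163 ± 0.110 in WT and 0.083 ± 0.035 in knockout libraries (mean FPKM ± SD, n = 3), with overlap, and Hoxb1 was listed at 0 throughout.

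Hoxc lies on chromosome 15, from 102921103 to 103036852 on the plus strand, and spans 116 kb. It was the most abundant cluster in both groups, with a summed FPKM of 123, 123 and 112 in WT and 66.2, 64.3 and 72.9 in knockout libraries. All 9 of its genes were tested, 5 fell, 1 rose and 3 were not called, so its members did not move as one. Hoxc10, a gene of the lumbar level and the hindlimb, was the highest Hox gene in both groups. Its FPKM was 56.1, 54.5 and 52.1 in WT and 31.0, 32.2 and 36.7 in knockout libraries, a change of -0.69 (SE 0.081) and a 1.63-fold lower mean. Hoxc6, a trunk gene, stood at 26.8, 25.96 and 24.8 in WT and 10.2, 10.5 and 11.9 in knockout libraries, a change of -1.18 (SE 0.076). These groups were clearly separated. Hoxc8, which patterns thoracic vertebrae and cartilage, was at 12.7, 14.1 and 10.5 in WT and 3.52, 3.12 and 3.15 in knockout libraries, a change of -1.65 (SE 0.113). Hoxc9, which acts in thoracic motor neurons and ribs, was at 12.2, 13.6 and 10.5 in WT and 4.99, 4.14 and 4.86 in knockout libraries, a change of -1.20 (SE 0.112). Both genes had similar WT levels and fell by different ratios, 3.81-fold for Hoxc8 and 2.59-fold for Hoxc9.

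The tail end of Hoxc held genes that moved in opposite directions side by side. Hoxc11, a hindlimb and tail gene, had an FPKM of 3.15, 2.71 and 2.79 in WT and 6.88, 5.09 and 6.72 in knockout libraries. It rose by 0.89 (SE 0.119) on the log2 scale, a 2.16-fold higher mean, with no overlap. Its neighbour Hoxc12 was at 1.9, 2.06 and 2.01 in WT and 0.33, 0.42 and 0.54 in knockout libraries. Hoxc12 fell by 1.07 (SE 0.089) on that scale, and its mean was 4.63-fold lower, the largest fall of the cluster by ratio. Hoxc13, a gene of hair and nail, had an FPKM of 4.47, 4.95 and 4.56 in WT and 4.15, 3.31 and 3.82 in knockout libraries. All knockout values of Hoxc13 were below all WT values, but its change of -0.25 (SE 0.092) was not called. At the head end of the cluster, neither gene was called. Hoxc4 was at 2.76 ± 0.248 and 2.67 ± 0.186 and Hoxc5 at 2.49 ± 0.355 and 2.60 ± 0.375 in WT and knockout libraries (mean FPKM ± SD, n = 3). Exons of Hoxc5 and Hoxc10 share 166 bases in GENCODE M21, 5.37% of the exon bases of Hoxc5, so fragments there cannot be assigned to either gene with certainty.

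Hoxa lies on chromosome 6, from 52155590 to 52260880 on the minus strand, and spans 105 kb. Its summed FPKM was 22.2, 22.4 and 20.2 in WT and 31.8, 31.8 and 29.6 in knockout libraries, so the groups did not overlap. Of its 8 tested genes, Hoxa7 and Hoxa11 rose and none fell. Hoxa11, which patterns the forearm and shank and the uterus, showed the largest contrast of any tested Hox gene. Its FPKM was 0, 0.02 and 0 in WT libraries and 3.52, 4.28 and 3.98 in knockout libraries. These are 4 estimated counts in all WT libraries together, which correspond to 1 fragment, and 1799 in the knockout libraries, or about 450 fragments. The depth-scaled ratio was 443, with a 95% exact interval of 79.2 to 17550 that covers counting error only. On the log2 scale Hoxa11 rose by 2.29 (SE 0.089). An antisense gene, Hoxa11os, covers 800 of its exon bases, 35.0% of them, and the sources used here do not give whether counting used the strand. The same limit holds for other called genes. Hoxb3os covers 52.9% of the exon bases of Hoxb3 and 27.3% of those of Hoxb2. Hoxaas3 covers 20.4% of those of Hoxa7, and Hoxb5os 3.59% of those of Hoxb5. Hoxa7, a trunk gene, was at 3.52, 3.09 and 2.82 in WT and 4.78, 4.90 and 4.40 in knockout libraries, a change of 0.46 (SE 0.090). The Hoxa7 groups did not overlap, and its call was lost without WT replicate 2, WT replicate 3 or knockout replicate 1 (changes from 0.40 to 0.45).

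The other Hoxa genes differed less. Hoxa10, a gene of the thigh and the uterus and the most abundant of the cluster, was at 9.0, 9.92 and 8.03 in WT and 10.7, 10.4 and 10.9 in knockout libraries. Every knockout library was above every WT library, by a margin too small to be called (change 0.23, SE 0.085). Hoxa9, a factor of blood progenitors and of myeloid leukaemia, was at 2.79, 2.98 and 3.03 in WT and 2.82, 2.33 and 2.68 in knockout libraries, with overlap and no call. Hoxa5, which acts in lung and sternum, stood at 1.77 ± 0.268 and 2.36 ± 0.433 (mean FPKM ± SD, n = 3, WT then knockout). It was not called, though its groups did not overlap. Hoxa6 was at 0.97, 1.45 and 0.96 in WT and 2.07, 2.11 and 1.33 in knockout libraries, with overlap through the third knockout library, and it was called higher only without knockout replicate 3 (change 0.55). Hoxa4 overlapped widely, at 1.01 ± 0.225 and 1.147 ± 0.539. Below the filter, Hoxa2, which sets the identity of the branchial arches, had a mean FPKM of 0.310 in WT and 0.527 in knockout libraries, and Hoxa3 had 0.453 and 0.607. Hoxa13, a gene of digits and the urogenital tract, was covered by 2 fragments in WT and 17 in knockout libraries, a ratio of 8.38 (95% exact interval 1.99 to 74.8).

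Hoxd lies on chromosome 2, from 74668310 to 74765142 on the plus strand, and spans 96.8 kb. It was almost silent in WT libraries, with a summed FPKM of 0.10, 0 and 0.17, and stood at 2.45, 2.25 and 2.15 in knockout libraries. None of its 9 genes passed the filter. The knockout signal came mostly from 2 neighbours in the middle of the cluster, Hoxd8 and Hoxd9, which act in the axial skeleton and the limb. Hoxd8 was at 0, 0 and 0.03 in WT and 0.82, 1.42 and 1.01 in knockout libraries, or 1 fragment against 149. The ratio was 147, with a 95% exact interval of 25.9 to 5838 for counting error. The FPKM of Hoxd9 was 0, 0 and 0.06 in WT and 1.19, 0.79 and 0.99 in knockout libraries, or 2 fragments against 107. Its ratio was 52.7 (95% exact interval 14.2 to 441). Neither gene overlapped between the groups, and in both the only WT signal was in the third library.

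With a filter of FPKM 0.1 in 3 libraries, limma called Hoxd8 and Hoxd9 higher as well, which made 5 higher and 13 lower of 30 Hox genes tested (8.3% and 7.46% of all genes tested then). With edgeR on the estimated counts, Hoxd8 and Hoxd9 were again the additions, 5 higher and 13 lower of 31 (8.48% and 8.12% of all genes). The rest of Hoxd was sparse. Hoxd3 had 1 fragment in WT and 17 in knockout libraries (ratio 16.8, 95% exact interval 2.63 to 700.1). Hoxd4 had none in WT and estimated counts of 60, 0 and 3 in the knockout libraries. Gm28230, a row of the same strand, covers 39.1% of the exon bases of Hoxd4 and 53.1% of those of Hoxd3. Its estimated counts were 0, 4 and 0 in WT and 7, 89 and 45 in knockout libraries. How fragments were divided among these rows is uncertain, so the libraries that carried Hoxd4 cannot be told. Hoxd3 and Hoxd4 share 388 exon bases, 9.26% of those of Hoxd3. The genes at the tail end, which shape the digits, did not separate the groups: Hoxd10, Hoxd11, Hoxd12 and Hoxd13 were at an FPKM of at most 0.09 in every library. Hoxd13 had 5 fragments in WT and 2 in knockout libraries.

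**Figure D3:**
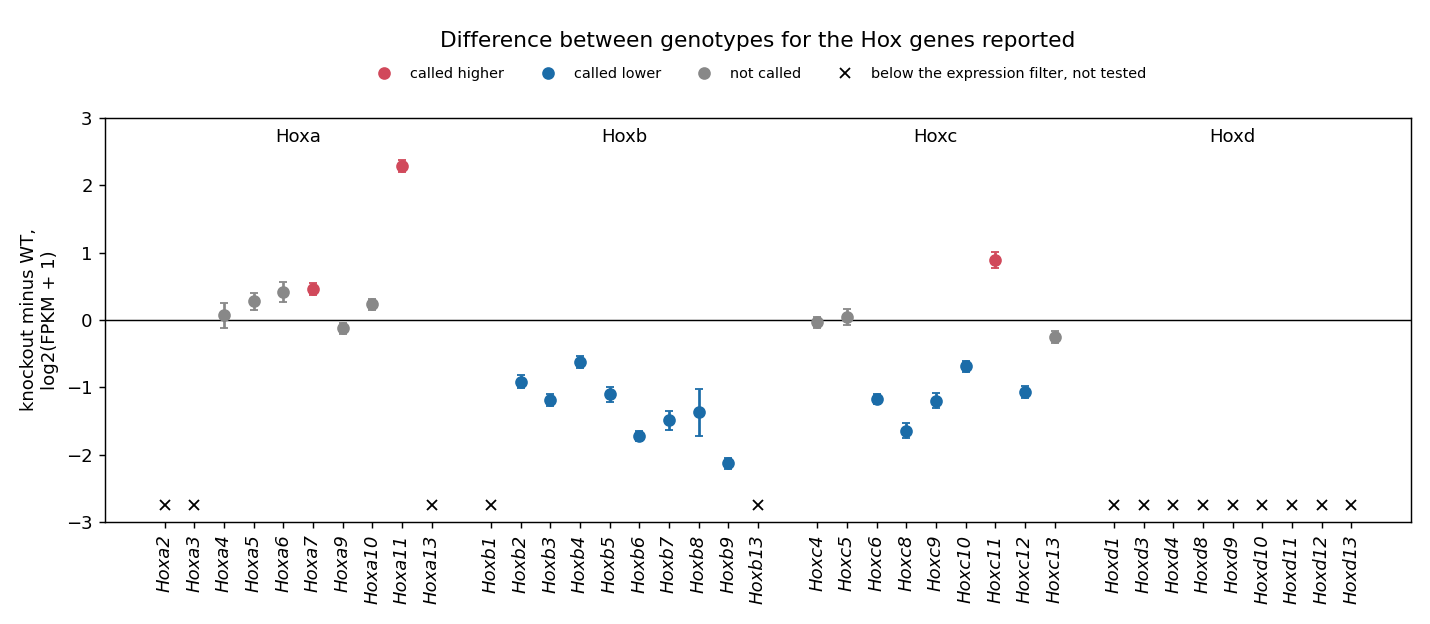
Log2 fold change (knockout minus WT, log2(FPKM + 1) scale) of the Hox genes reported here by cluster and paralog number, with bars of 1 SE and crosses for genes that were not tested. All 8 Hoxb points lie below 0, while Hoxc runs from -1.65 at Hoxc8 to 0.89 at Hoxc11 and Hoxa11 stands at 2.29.

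Read across clusters by paralog number, called members moved the same way in groups 6, 8, 9 and 11 and opposite ways in group 7. Paralog group 11 was the one whose called members were both higher, with a summed FPKM of 3.16, 2.73 and 2.79 in WT and 10.4, 9.37 and 10.7 in knockout libraries. The remaining gene, Hoxd11, had 4 estimated counts in 1 WT library and none elsewhere. Group 9 was lower, at 59.3, 58.0 and 51.1 in WT and 17.1, 15.9 and 17.6 in knockout libraries. Within it Hoxb9 and Hoxc9 fell, Hoxa9 was not called and Hoxd9 went from near 0 to about 1. Group 6 summed to 35.2, 35.2 and 32.8 in WT and 13.9, 14.1 and 14.8 in knockout libraries, where Hoxb6 and Hoxc6 fell and Hoxa6 was not called. In group 8, Hoxb8 and Hoxc8 fell, and the sum was 19.4, 20.98 and 12.7 in WT and 5.39, 5.89 and 5.43 in knockout libraries. In group 7, Hoxa7 rose and Hoxb7 fell. Group 10 summed to 65.1, 64.5 and 60.2 in WT and 41.7, 42.6 and 47.7 in knockout libraries, nearly all of it Hoxc10 and Hoxa10. By position, the head end (groups 1 to 3) had 0 higher and 2 lower of 3 tested, and the centre (4 to 8) 1 higher and 7 lower of 13. The tail end (9 to 13) had 2 higher and 4 lower of 9. Over all genes tested, 10.4% were called higher and 9.2% lower. Hoxb held 2 of the lower genes at the head end, 5 in the centre and 1 at the tail end. Counts by position thus cannot be read apart from cluster. By cluster, the counts were 8 lower of 8 in Hoxb and none lower of 8 in Hoxa, a difference that was not tested.

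The order of levels within a library, which FPKM allows because it is per length, also shifted. In WT libraries Hoxc10 led at a mean FPKM of 54.3, then Hoxb9 at 41.1 and Hoxc6 at 25.9, each with a range apart from the next. Hoxc8 at 12.4 and Hoxc9 at 12.1 followed and overlapped, and Hoxa10 was sixth at 8.98. In knockout libraries Hoxc10 again led, at 33.3, and then came Hoxc6 at 10.9 and Hoxa10 at 10.7, which overlapped. Hoxb9 was at 8.60 and Hoxc11 at 6.23, with ranges apart from each other. Hoxa11, near 0 in WT, had a mean of 3.93 in knockout libraries, where its range overlapped those of its neighbours in the order, Hoxc9 at 4.66 and Hoxc13 at 3.76.

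Other rows of the table within the cluster limits are mostly noncoding RNAs. There were 46, of which 11 reached an FPKM of 1 in a library. Of 8 tested, 2 rose and 2 fell, beside 10.4% and 9.2% of all genes tested. Both that rose lie at Hoxa11 and entered the test through the knockout libraries only. Hoxa11os, the antisense transcript there, was at 0.09, 0.04 and 0 in WT and 1.1, 1.03 and 1.09 in knockout libraries (change 0.99, SE 0.081). Gm27492, a short RNA of the same strand, changed by 1.12 (SE 0.080) with no more than 16 estimated counts in any library. It lies within the limits of Hoxa11os, so the rows may not stand for separate transcripts. Both that fell lie between Hoxb13 and Hoxb9. The long noncoding RNA Gm53 was at 9.66, 10.4 and 8.17 in WT and 1.91, 2.23 and 1.44 in knockout libraries, a change of -1.87 (SE 0.133), close to that of Hoxb9 downstream. The Mir196a-1 row was at 10.8, 9.15 and 4.68 in WT and 1.39, 1.29 and 1.53 in knockout libraries (change -1.87, SE 0.262). Libraries of polyadenylated RNA do not measure the mature microRNA, so that row counts fragments of longer transcripts over the hairpin. Hotairm1, an antisense transcript of Hoxa, was at 1.08 ± 0.248 and 1.66 ± 0.241 (SD, n = 3, WT then knockout) and was not called. Gm27477, Gm15050 and Gm11539 were tested and not called, and Gm27861, Gm28032 and Gm27695 each reached an FPKM of 1 in some library without passing the filter. Hotair, in Hoxc, stayed below the filter at 0.190 and 0.330.

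MicroRNAs of the miR-196 family lie in 3 of the clusters and are known to repress Hox transcripts, Hoxb8 among them. The mature sequences are shown because the Mir196a-1 row was lower like its neighbours while its relatives were hardly covered. Both share 1 seed (bases 2 to 8, in capitals), and the sequences are from RefSeq.
miR-196a-5p: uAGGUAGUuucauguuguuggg
miR-196b-5p: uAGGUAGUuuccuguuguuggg

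The first is encoded by Mir196a-1 in Hoxb (chromosome 11, 96265187 to 96265208) and by Mir196a-2 in Hoxc. The rows of Mir196a-2 and Mir196b (the second sequence, in Hoxa) had at most 2 estimated counts in any library.

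Genes just outside the clusters were compared in the same way. Of the 16 protein-coding genes that flank the clusters, 2 on each side, 11 were tested, none rose and 1 fell. Those tested were Snx10, Skap2 and Hibadh beside Hoxa, Snx11 beside Hoxb, Atp5g2, Calcoco1, Smug1 and Cbx5 beside Hoxc, and Lnpk, Mtx2 and Hnrnpa3 beside Hoxd. Evx1 and Evx2, homeobox genes at the tail ends of Hoxa and Hoxd, were below the filter with Calcoco2, Ttll6 and Skap1. Calcoco1, 199 kb outside Hoxc, had an FPKM of 14.3, 14.2 and 13.6 in WT and 10.9, 11.3 and 12.2 in knockout libraries, a change of -0.27 (SE 0.067). Within 1000 kb of the clusters, 84 tested genes other than Hox genes, the noncoding rows above included, held 8 that rose and 7 that fell, with a median change of 0.00. These were 9.52% and 8.33% of the 84, close to the 10.4% and 9.2% over all genes tested. Around Hoxb there were 3 higher and 3 lower of 29, where Gm53 and Mir196a-1 were 2 of the 3 lower. Hoxb lies 36.6 Mb from Nlrp3 on the same chromosome, and whether this distance bears on the Hoxb values was not tested.

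**Figure D4:**
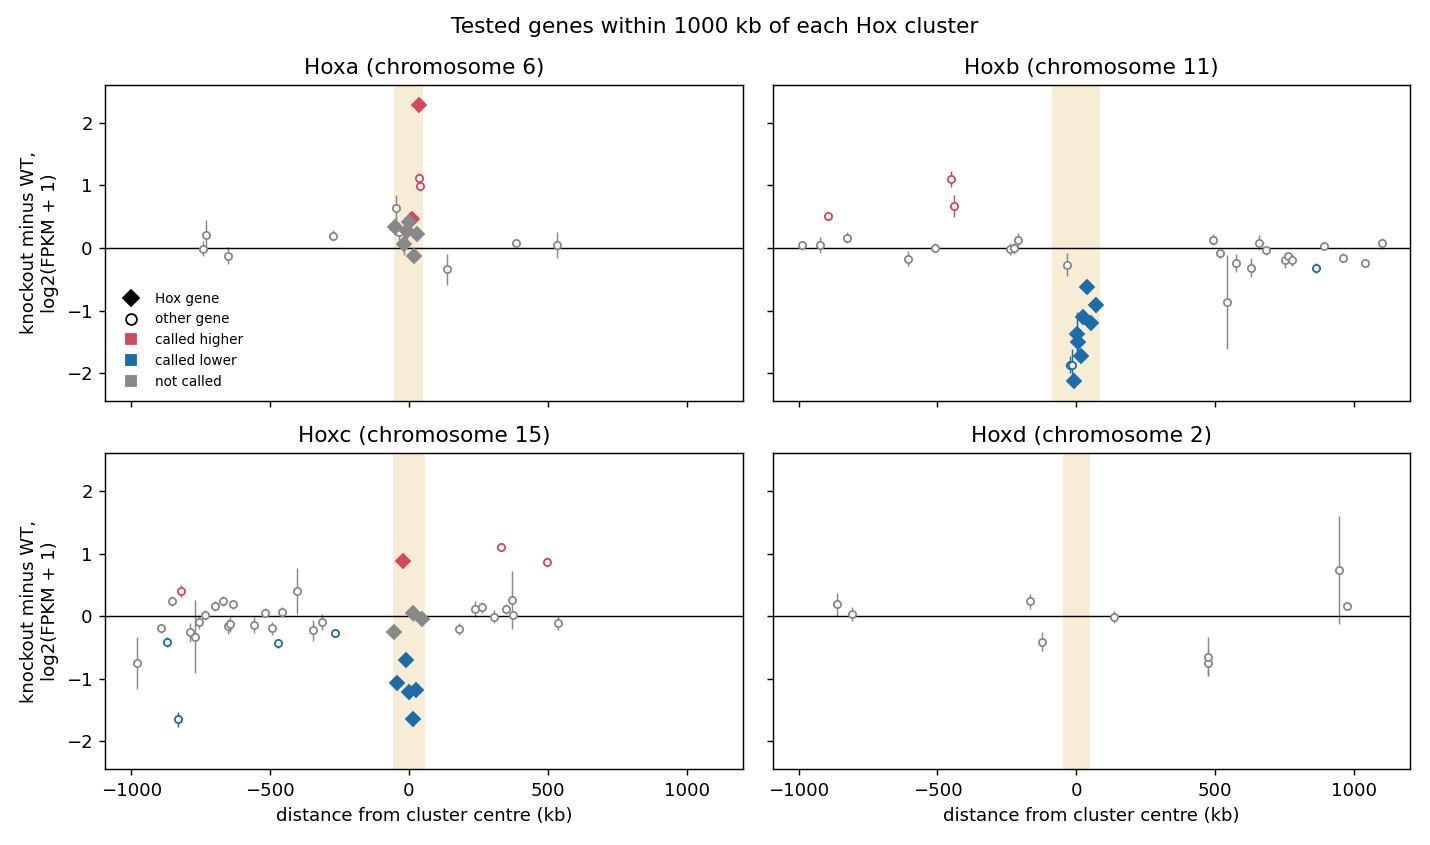
Log2 fold change (knockout minus WT, log2(FPKM + 1) scale) of tested genes against distance from the centre of each Hox cluster in kb, with Hox genes as filled diamonds, other genes as open circles, bars of 1 SE and the cluster shaded. Low Hoxb and Hoxc points stand within the clusters, and most other genes in the window lie near 0.

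HOX proteins bind DNA together with cofactors of the TALE homeodomain class. Of 8 tested cofactor genes, 2 rose and 3 fell, with a median change of -0.16. These are 25% and 37.5%, beside 10.4% and 9.2% of all genes tested. Pknox2 was at 1.44, 1.42 and 1.24 in WT and 0.33, 0.29 and 0.35 in knockout libraries, and entered the test through the WT libraries only. Pbx2, of the PBX family of partners, fell from a mean of 12.5 to 9.34, whereas Pbx3 was not called. Meis1, which works with Hoxa9 in blood progenitors, rose from 0.76, 0.72 and 0.74 in WT to 1.56, 1.88 and 1.48 in knockout libraries. It entered the test through the knockout libraries only. Meis2 rose from a mean of 1.49 to 2.08, a call that was lost when any library but knockout replicate 3 was left out, with the replicate number as a block, and without a filter. The cofactor genes thus included both directions. None of the 5 called overlapped between groups, which being called already favours.

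Of 25 tested genes of the Polycomb complexes, which keep Hox genes silent, 1 rose (4%) and 4 fell (16%), with a median change of 0.05, beside 10.4% and 9.2% of all genes tested. The total called was near that over all genes. Of 15 genes of Trithorax and MLL complexes and H3K27 demethylases none was called (median 0.06). Ezh2, the H3K27 methyltransferase, rose from a mean FPKM of 4.14 ± 0.346 to 5.5 ± 0.226 (SD, n = 3), while its relative Ezh1 fell from 4.23 to 3.18. Pcgf1, of a variant Polycomb complex, fell from 5.96 to 3.89 and Cbx6 from 6.75 to 4.8. The calls of Pcgf1 and Cbx6 were lost when any library but knockout replicate 3 was left out, and that of Ezh2 without WT replicate 1, WT replicate 3, knockout replicate 1 or knockout replicate 2. In the retinoic acid list 1 of 10 tested genes rose (10%) and 4 fell (40%). Crabp1, a cytoplasmic retinoic acid binding protein, was at 343, 324 and 406 in WT and 12.2, 8.99 and 13.8 in knockout libraries, a change of -4.83 (SE 0.162, limma adjusted p = 1.28e-05). Crabp2 and the receptor gene Rara fell too, and the reductase gene Dhrs3 rose from 13.9 to 17.4, a call lost when any 1 library was left out, with the replicate number as a block, with edgeR and with a looser or no filter. All 4 that fell were separate between groups, which being called already favours. Among 10 regulators of Hox genes along the body axis, 3 were tested, 1 rose and none fell. Cdx1, Cdx2 and Cdx4, which induce central Hox genes in the embryo, were at an FPKM of at most 0.51 in every library.

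Factors that mark limb type and position also differed, 2 rising and 6 falling of 11 tested (median -0.54). These are 18.2% and 54.5%, beside 10.4% and 9.2% of all genes tested. Tbx5, which specifies the forelimb, was at 3.07, 2.92 and 2.44 in WT libraries and listed at 0 in all knockout libraries. It entered the test through the WT libraries only. Tbx4, its hindlimb counterpart, was at 0, 0 and 0.04 in WT and 0.51, 0.50 and 0.45 in knockout libraries, and was not tested because of its low level. Per the labels the cells of both groups came from the femur, a hindlimb bone. Pitx1, another hindlimb factor, fell from 10.2, 10.9 and 10.0 in WT to 5.95, 6.47 and 8.20 in knockout libraries. Hand2 and Isl1, which act at the posterior margin of the limb bud, were at a mean of 0.007 and 0 in WT and 0.913 and 0.653 in knockout libraries, below the filter. Msx2, a factor of limb margins and bone, rose from a mean of 1.59 to 5.76, and Prrx2, a mesenchymal homeobox gene, from 14.7 to 42.3. En1, a marker of ventral limb ectoderm and of some fibroblasts, fell from 3.86 to 0.76. Tbx5 and Pitx1 were thus lower in knockout libraries, while Tbx4, Hand2 and Isl1 were higher there at low levels. Whether the cultures came from different body positions was not tested.

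Cell type markers also differed between the groups. All 23 tested macrophage markers of a list of 25 rose, with a median change of 0.98. Over all genes tested, 10.4% rose and 9.2% fell. The summed FPKM of the macrophage list was 786 to 890 in WT and 1821 to 2077 in knockout libraries. No marker of that list was at 0 in every library. Marco, a scavenger receptor, rose from a mean of 10.2 to 47.3, and Clec4d, a lectin of myeloid cells, from 12.1 to 43.6. Adgre1, the F4/80 antigen, was at 46.6, 44.3 and 41.2 in WT and 134, 132 and 137 in knockout libraries. Of 18 tested stromal markers 4 rose (22.2%) and 12 fell (66.7%). The summed FPKM of the stromal list was 4489 to 4731 in WT and 3430 to 3546 in knockout libraries. Pdgfra, a stromal receptor, was at 30.3, 31.8 and 28.4 in WT and 2.80, 3.22 and 2.86 in knockout libraries, and Thy1 fell from a mean of 134 to 11.8. Postn and Nt5e had the largest rises, from 50.9 to 168 and from 0.183 to 2.35, and Nt5e entered the test through the knockout libraries only. The collagen gene Col1a1 remained high in both groups, at 1726 ± 86.5 and 1301 ± 75.4 (SD, n = 3). Most stromal and macrophage markers were thus present in all 6 libraries, in different proportions. Lepr and Lum of the stromal list stayed at an FPKM of at most 0.16, and Ptprc and Mrc1 of the macrophage list were below the filter. Lyz2, with means of 463 in WT and 1145 in knockout libraries, made up much of the macrophage sum, and Col1a1 much of the stromal sum. Of 13 markers of blood stem and progenitor cells, 4 were tested, Cd34 and Meis1 rose and Gata2 fell, and Gata1 and Gfi1b were at 0 in every library. The summed FPKM of that list was 14.9 to 16.3 in WT and 16.9 to 18.1 in knockout libraries. Of 16 cell cycle genes 1, Rrm2, rose. The part of these markers in the Hox values was not tested.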

How the data were processed

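Polyadenylated RNA of 6 libraries was sequenced, 3 WT and 3 Nlrp3 knockout, all given LPS. Tools named in the submitters' processing notes are cutadapt 1.9, HISAT2 2.0.4 and StringTie 1.3.4d, with build GRCm38. How genes were counted, with which annotation, strand setting and filters, is not given in the sources used here. The authors deposited FPKM values to 2 decimals and, per the file headers, counts per gene. These deposited estimated counts were whole numbers: 44.4% of values up to 16 were multiples of 4, and 99.9% of count to FPKM ratios over 6751 genes agreed to 1% with 1 factor for each library. From the first value, about 4 counts were taken to stand for 1 fragment. This inference is weak, since most counts up to 16 were not multiples of 4 and the ratios hold for any constant. Fragment numbers and their intervals rest on it. Intervals and the floor of 3 fragments cover counting error only.

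The test was limma 3.58.1 (R 4.3.3) on log2(FPKM + 1), with group as the only term, a mean-variance trend and Benjamini-Hochberg adjustment over all 12136 genes that reached an FPKM of 1 in 3 or more of the 6 libraries. Alternatives were a pseudocount of 0.1, a filter of 0.1, no filter, quantile normalization, edgeR 4.0.16 and DESeq2 1.42.0 on the estimated counts, a replicate block and leaving out each library. Ratios for genes with few fragments have 95% exact binomial intervals. The Hox genes, the gene lists and the tests were chosen with earlier results of these data known. The genes named are the Hox genes, cluster rows reaching an FPKM of 1 and the 2 nearest protein-coding genes on each side. From each list, the 2 called genes with the largest rise and the 2 with the largest fall are named. Other list genes and other cluster rows, Gm28230 among them, were named after their values were seen. A few genes, 1 Hox gene among them, enter the counts and sums but are not reported here by name. Unstimulated cultures were not analysed here. Start, end and strand of 37 of the 39 genes are the same in GENCODE M21, which gave exon overlaps. Promoters and microRNAs are from RefSeq tables of GRCm38.p6.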

Additional observations from a re-analysis of the deposited data

How the results depend on the processing

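Hox genes called lower numbered 12 or 13 under every alternative run, against 13, and the one lost was Hoxb8. Hox genes called higher numbered 3 of 25 tested with a pseudocount of 0.1, quantile normalization or the replicate block. They numbered 5 of 30 with a filter of FPKM 0.1, 5 of 36 without a filter and 5 of 31 with edgeR on the estimated counts. DESeq2 gave 6 of 31, and edgeR on counts divided by 4, an alternative chosen after seeing the data, gave 5 of 29. The additions were Hoxd8 and Hoxd9, plus Hoxd3 with DESeq2, all tested only because these settings let low genes in. Leaving out 1 library gave 2 to 4 Hox genes higher and 12 to 13 lower; over all genes it gave 868 to 1685 higher and 721 to 1314 lower, with the 721 without WT replicate 1. DESeq2 called 1908 genes higher and 1776 lower of 17479, and the cause was not tested. Without a filter the calls were 1353 and 1197 of 26722 genes. They were 1512 and 1461 of 14500 with edgeR on counts divided by 4. Of 12136 genes, 1257 and 1104 were called with a pseudocount of 0.1, and 1262 and 1209 with quantile normalization. The shares were 8.48% and 8.12% with edgeR on the estimated counts, and 8.3% and 7.46% with a filter of FPKM 0.1. Changes that turned sign were those of genes without a call. Leaving out 1 library moved Hoxa4 from 0.07 to between -0.1255 (without knockout replicate 1) and 0.2032, with -0.0157 without WT replicate 2. It moved Hoxc5 from 0.05 to between -0.0378 (without knockout replicate 2) and 0.1183, with -0.0292 without WT replicate 3. It moved Hoxc4 from -0.04 to between -0.0798 and 0.0137 (without WT replicate 2), with 0.0045 without knockout replicate 2. The replicate numbers are days in the titles, a second label has day 1 for all, and whether a day was shared between groups is not stated, so the pairing is uncertain: deviations of same-numbered libraries correlated at 0.02, 0.168 and 0.096, and not every library correlated best with its own number. With the replicate block 1106 genes were higher and 980 lower, and 3 Hox genes higher and 12 lower. Genes below about 3 fragments per group are limited by depth.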

Other observations

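Within 1000 kb of Hoxc, 2 genes of blood and immune cells rose, Gpr84 by 1.11 (SE 0.063) and Nckap1l by 0.87 (SE 0.079) on the log2 scale, and Igfbp6, a secreted binding protein for insulin-like growth factors, fell by 1.65 (SE 0.124). Near Hoxb, Phospho1, a phosphatase of bone mineralization, rose by 1.11 (SE 0.131). These genes were named after their values were seen. Each lies more than 300 kb from the centre of its cluster.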
